A study of Mus musculus with 6 samples.

Results

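The class I olfactory receptor cluster of mouse chromosome 7 was examined for H3K9me3, a histone mark of heterochromatin, in quadriceps femoris muscle of Prr14-KO and Prr14-WT mice. Its members were the H3K9me3 regions of the authors' table whose assigned gene symbol begins with Olfr and which lie between 102 and 105.5 Mb of chromosome 7 in GRCm38. This position rule, which used no measured level, took 279 of 202553 regions. They carry 113 of the 16587 symbols in the table, 105 of protein-coding genes and 8 of pseudogenes. The mark was profiled by CUT&Tag, in which a transposase brought to the antibody-bound histone cuts and tags the DNA beside it. There were 3 Prr14-KO libraries (replicates 4, 5 and 7) and 3 Prr14-WT libraries (replicates 3, 4 and 8), all from instantly frozen skeletal muscle. The labels name no other allele, Cre driver, age, sex, litter or batch, and do not state whether the libraries come from separate mice, so the p-values measure the spread between these libraries.

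Olfactory receptors are odorant-binding G protein-coupled receptors, and the class I receptors, the fish-like branch of the family, are gathered in a single cluster on mouse chromosome 7 that also surrounds the beta-globin genes. The coding sequence of a receptor gene lies as a rule in a single exon without introns. In olfactory neurons the receptor genes that are not chosen for expression carry H3K9me3, and Prr14 encodes a nuclear lamina protein that binds the heterochromatin protein HP1. Most of these receptors have no known role in skeletal muscle, and a histone mark does not measure transcripts, so neither the tissue nor the genotype label could be checked here through expression.

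The start windows of 4 members are printed to show what lies around the start of a class I gene and how much of it a region reaches. Each line holds 300 bases from RefSeq (GRCm38.p6), 5′ to 3′ on the strand of the gene, with 250 bases before the start and 50 after it. Capitals mark the ATG at the annotated start and any TAATTA, the core of homeodomain binding motifs.
Olfr609: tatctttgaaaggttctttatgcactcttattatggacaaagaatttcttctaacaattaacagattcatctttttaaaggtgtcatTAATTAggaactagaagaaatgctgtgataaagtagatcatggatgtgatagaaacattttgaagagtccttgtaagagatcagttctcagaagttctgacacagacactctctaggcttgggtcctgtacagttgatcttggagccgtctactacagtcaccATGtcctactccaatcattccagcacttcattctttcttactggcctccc
Olfr645: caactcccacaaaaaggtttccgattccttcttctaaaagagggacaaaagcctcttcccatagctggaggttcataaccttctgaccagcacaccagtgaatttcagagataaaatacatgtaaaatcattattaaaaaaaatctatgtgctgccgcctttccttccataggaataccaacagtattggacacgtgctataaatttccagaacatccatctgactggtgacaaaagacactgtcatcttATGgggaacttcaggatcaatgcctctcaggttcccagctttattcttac
Olfr676: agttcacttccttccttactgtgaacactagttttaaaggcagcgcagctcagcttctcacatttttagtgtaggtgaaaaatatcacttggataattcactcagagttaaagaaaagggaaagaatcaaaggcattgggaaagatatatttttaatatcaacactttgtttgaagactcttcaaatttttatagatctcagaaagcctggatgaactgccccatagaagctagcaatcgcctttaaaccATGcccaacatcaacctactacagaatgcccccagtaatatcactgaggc
Olfr575: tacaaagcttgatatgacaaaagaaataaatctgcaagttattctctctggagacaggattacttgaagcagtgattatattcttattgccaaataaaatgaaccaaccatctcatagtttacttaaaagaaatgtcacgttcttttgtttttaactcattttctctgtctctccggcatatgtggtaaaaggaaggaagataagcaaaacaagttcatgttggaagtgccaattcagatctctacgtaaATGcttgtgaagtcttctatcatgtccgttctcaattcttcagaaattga
The Olfr609 window is chr7:103492827-103493126 on the minus strand, and the region over this gene, chr7:103492063-103492917, covers the last 91 bases of the window. The Olfr645 window is chr7:104085029-104085328 on the minus strand, and its region, chr7:104084246-104084912, lies wholly on the gene side of the window. The Olfr676 window is chr7:105034950-105035249 on the plus strand, and its region, chr7:105035491-105035793, also begins on the gene side, beyond the printed bases. The Olfr575 window, chr7:102955571-102955870 on the minus strand, is an exception, since the region chr7:102954966-102956230 runs across all 300 bases of it. Of 109 class I windows, 13 were touched by a member region (11.9%), and Olfr575 and Olfr544 were the 2 windows that lay wholly inside one.

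Around the starts of class I genes, H3K9me3 regions were concentrated over the first kilobase of the gene, about the length of a receptor gene, with little cover on either side. Over 109 class I genes with a RefSeq start and strand, regions covered 26.7% of the bases in the first 500 bp after the start and 21.8% in the next 500 bp. They covered 3.09% of the 500 bp before the start and 1.20% of the 500 bp before that. Between 1000 and 1500 bp after the start, beyond the usual length of a receptor exon, the cover was 0.477%. The median class I gene in the RefSeq table is 954 bp long. Of the 109 genes, 55 had a region in the first kilobase (50.5%), against 10 with one in the kilobase before the start (9.17%). In 21 of them the region filled more than 50% of that first kilobase. By the authors' distances, 71 of the 279 members (25.4%) were centred in the first kilobase after a start and 11 (3.94%) in the kilobase before one, while most others lay 1 to 10 kb away. In bulk muscle, a mark on fewer nuclei and a weaker mark on all nuclei cannot be told apart.

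The other Olfr genes of chromosome 7 had nearly as much cover over their first kilobase, and those of other chromosomes had less. Regions covered 24.2% of the first kilobase of class I genes. They covered 20.2% of it in the 100 other Olfr genes of chromosome 7, 6.87% in the 243 Olfr genes of chromosome 2 and 8.40% in the 492 Olfr genes elsewhere. At least 1 region lay in the first kilobase of 48 of the other chromosome 7 genes (48%), 48 of the chromosome 2 genes (19.8%) and 104 of the rest (21.1%). Measured over whole genes, the cluster had 14.0% of gene bases inside a region and 3.91% of the bases in the 10 kb on either side of genes, a ratio of 3.58. That ratio was 2.59 for the other Olfr genes of chromosome 7, 0.861 for those of chromosome 2 and 1.27 for those elsewhere. All 6 libraries share 1 set of regions, so these differences between gene sets are given as descriptions and have no test over libraries. The sources used here do not say how reads that map to more than 1 receptor gene were treated, and the part of read mapping in the difference between gene sets was not tested.

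**Figure D1:**
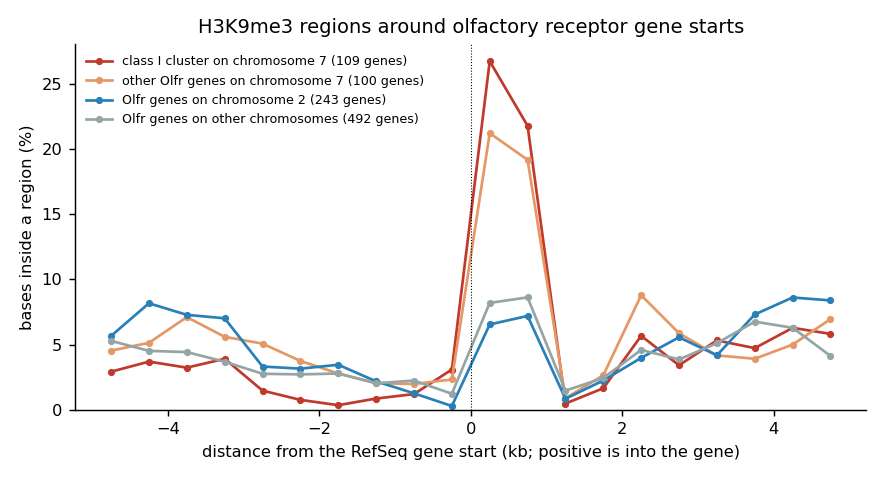
Percent of bases inside an H3K9me3 region (vertical axis) in 500 bp steps around the RefSeq start (horizontal axis, kb, positive into the gene), for 109 class I genes, 100 other Olfr genes of chromosome 7, 243 of chromosome 2 and 492 of other chromosomes. The class I curve stands at 26.7% just after the start and 3.09% just before it, and the curves of chromosome 2 and the other chromosomes stay under 10%.

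The level of the mark over the first kilobase overlapped between the genotypes. With the counts of each region spread evenly over its length, the first 500 bp held 3.06, 2.89 and 3.01 CPM per kb per gene (CPM being counts scaled to a common library size) in Prr14-KO replicates 4, 5 and 7, and 3.02, 2.98 and 3.07 in Prr14-WT replicates 3, 4 and 8. The genotypes overlapped there, with means of 2.99 ± 0.0881 in Prr14-KO and 3.03 ± 0.0471 in Prr14-WT (SD, n = 3 each). In the 500 bp before the start the signal averaged 0.206 ± 0.0245 CPM per kb per gene in Prr14-KO and 0.192 ± 0.00915 in Prr14-WT, with the libraries again overlapping. Some other 500 bp steps did not overlap, in both directions. All Prr14-KO libraries lay below in the steps that begin at -4500, -1000 and 3000 bp. They lay above in those that begin at 1000 and 4500 bp. No step was tested. Only reads inside called regions are counted, and the 6 libraries share those regions, so the step at the start follows the shared region boundaries in every library and only its height was measured per library.

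**Figure D2:**
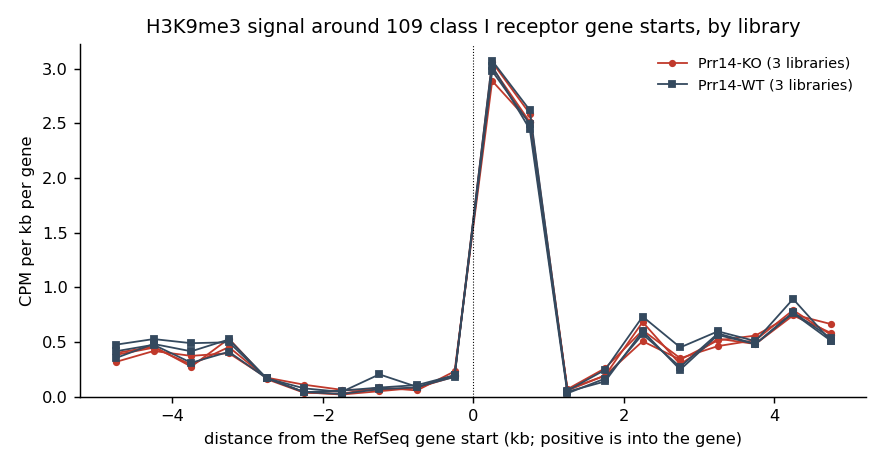
H3K9me3 signal in CPM per kb per gene (vertical axis) around 109 class I starts (horizontal axis, kb, positive into the gene), 1 line per library, Prr14-KO in red circles and Prr14-WT in dark squares. The 6 lines lie between 2.89 and 3.07 in the first 500 bp and near 0.2 in the 500 bp before the start.

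The first kilobase was covered in some receptors and not in others. RefSeq lists 158 Olfr genes in the interval, 126 coding and 32 pseudogenes, and a member region overlapped the body of 80 (50.6%). It overlapped 67 of the coding genes (53.2%) and 13 of the pseudogenes (40.6%). Below the beta-globin genes 29 of 64 genes had a region in the first kilobase (45.3%), and beyond them 26 of 45 did (57.8%). The start windows of genes with a region in the first kilobase had a median GC content of 38.7%, and those without one 36.5%, with a median of 1 CpG in both. The windows are poor in GC as a family: the class I median was 37.3%, the median of 839 windows of other Olfr genes was 35.0%, and that of all 32851 windows was 52.7%. TAATTA, searched on both strands at once since it is its own reverse complement, was in 16 class I windows (14.7%), against 19.1% of the other Olfr windows and 5.29% of all windows. CCCNNGGG, the core of the EBF motif and also its own reverse complement, was in 3 (2.75%), against 3.10% and 13.7%. The windows reach only 250 bases upstream, and in 82 of 109 (75.2%) the annotated start is the start codon itself.

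The members lay closer to gene starts than the other Olfr regions. Their median width was 373 bp, with quartiles of 221.5 and 604.5 bp, against medians of 368, 382 and 356 bp for the Olfr regions of the rest of chromosome 7, of chromosome 2 and of other chromosomes, and 318 bp for all regions. None was 2 kb or wider. The authors annotate 86 of the 279 to a promoter within 1 kb of a start (30.8%), against 15.8% of the other Olfr regions of chromosome 7, 11.7% of those of chromosome 2, 10.8% of those elsewhere and 3.80% of all regions. Another 127 members are annotated as intergenic (45.5%). The median distance to a start was 3260 bp, against 5802.5 bp for the other Olfr regions of chromosome 7 and 86830 bp for all regions. Per kb covered, the cluster held 10.9 CPM, against 12.1, 11.7 and 13.4 CPM for the Olfr regions of the rest of chromosome 7, of chromosome 2 and of other chromosomes, and 12.8 CPM for all regions. The share annotated to a promoter within 1 kb was above that of the other Olfr sets and the level per kb was below theirs. Neither difference was tested. That class spans both sides of a start, and more members were centred in the first kilobase after a start (71) than in the kilobase before (11).

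The regions lie between 102477013 and 105350388 on chromosome 7 and cover 124.923 kb of that span. Of the 113 symbols, 37 have 1 region, 32 have 2, 20 have 3, 15 have 4 and the other 9 have 5 to 9. The beta-globin genes divide the members into 152 regions below them and 127 beyond them. The longest stretch without a member, 338 kb between Olfr650-ps1 and Olfr651, holds 27 regions of other symbols, among them those of the Trim30 genes. The next, 133 kb between Olfr664 and Olfr665, holds 19 regions of other symbols, and the third, 82.6 kb from Olfr67 to Olfr66, contains the beta-globin genes. The median gap between neighbouring members was 5.36 kb.

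In 1 Mb bins, which sum the regions of all symbols, the central bins ranked high in the genome. Members were 113 of the 129 regions from 103 to 104 Mb and 73 of the 131 from 104 to 105 Mb. The bin from 103 to 104 Mb held 688 ± 39.3 CPM in Prr14-KO and 703 ± 18.9 CPM in Prr14-WT (SD, n = 3 each), above 91.8% of the bins of the genome. The bin from 104 to 105 Mb held 652 ± 41.6 CPM in Prr14-KO and 682 ± 38.1 CPM in Prr14-WT, above 90.5% of bins. The outer bins, which the cluster fills only in part, were lower: 102 to 103 Mb stood above 29.8% of bins and 105 to 106 Mb above 36.1%. They held 54 and 39 members, the first starting at 102477013 and the last ending at 105350388. By 100 kb, the median bin of the interval held 54.9 CPM, against 34.4 CPM genome-wide. The highest 100 kb bin began at 103.1 Mb, with 96.8 ± 5.79 CPM in Prr14-KO and 105 ± 0.834 CPM in Prr14-WT. The lowest began at 102.2 Mb, ahead of the receptors, and held 1 region with 3.22 ± 1.10 CPM in Prr14-KO and 1.24 ± 0.552 CPM in Prr14-WT.

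**Figure D3:**
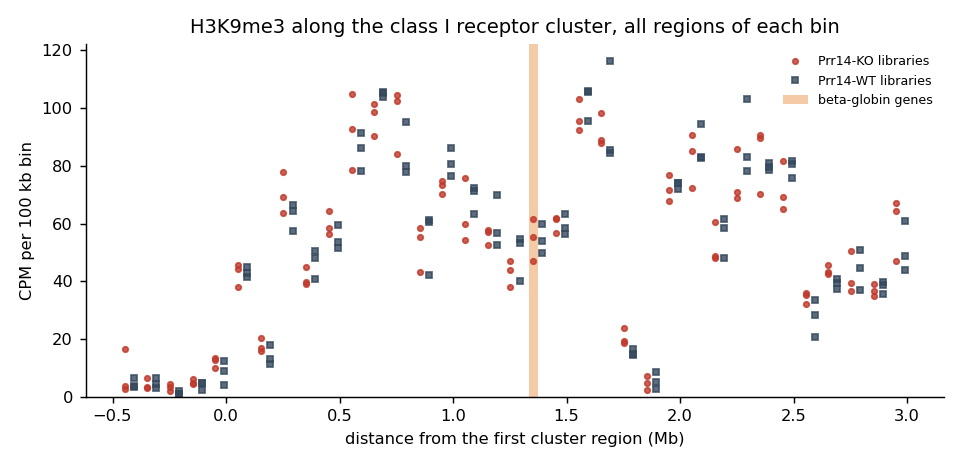
H3K9me3 in CPM per 100 kb bin (vertical axis) against distance from the first cluster region in Mb (horizontal axis), 1 point per library, Prr14-KO in red circles and Prr14-WT in dark squares, with the beta-globin genes shaded. Bins of both genotypes reach about 100 CPM on either side of the beta-globin genes.

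The total mark on the cluster did not separate the genotypes. The 279 regions held 5988, 5123 and 5352 counts in Prr14-KO replicates 4, 5 and 7, and 5923, 5914 and 5812 counts in Prr14-WT replicates 3, 4 and 8. Scaled by library, that was 1395, 1292 and 1343 CPM in Prr14-KO and 1345, 1391 and 1366 CPM in Prr14-WT, so the libraries of the genotypes overlapped. The means were 1343 ± 51.4 CPM in Prr14-KO and 1368 ± 23.0 CPM in Prr14-WT (SD, n = 3 each), a log2 ratio of -0.03. Without Prr14-KO replicate 5, the lowest library, the log2 ratio was 0.0012. The side below the beta-globin genes averaged 770 ± 32.8 CPM in Prr14-KO and 776 ± 16.1 CPM in Prr14-WT. The side beyond them averaged 574 ± 19.8 CPM in Prr14-KO and 592 ± 6.93 CPM in Prr14-WT, and the libraries overlapped on both sides. The 71 regions centred in the first kilobase of a gene by the authors' distance summed to 398 ± 11.3 CPM in Prr14-KO and 412 ± 8.63 CPM in Prr14-WT. Library totals over all regions ran from 4324444 to 4707466 counts in Prr14-KO and from 4636898 to 4756133 counts in Prr14-WT, of which the cluster took 0.118 to 0.127%.

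No single region of the cluster passed the test between Prr14-KO and Prr14-WT. Of the 279 members, 218 had enough counts to be tested, and the other 61, none above 26 counts in any library, were described only. By edgeR's quasi-likelihood test with Benjamini-Hochberg adjustment over all 153789 regions tested, 0 of 218 members passed an adjusted p of 0.05, against 0.013% of all regions. At an unadjusted p under 0.05 there were 6 members (2.75%, 4 higher and 2 lower in Prr14-KO), against 3.84% of all regions. DESeq2 gave 6 and limma-voom 4 at that unadjusted threshold, with 0 adjusted calls in each. The genotypes did not overlap in 19 members (8.72%, 10 with Prr14-KO above and 9 below), against 9.61% of all regions. Both shares lie below the background. The median log2 change was -0.04 in members and 0.00 in all regions, with quartiles of -0.32 and 0.24 in members. In the authors' deposited table the 225 members with an adjusted p also gave 0 calls, and 8 members had an unadjusted p under 0.05 (2.87% of members, against 3.91% of all regions).

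The regions with the smallest p in each direction are given with their counts, and none of them passed after adjustment (edgeR adjusted p = 0.998 for each). The Olfr676 region, chr7:105035491-105035793, inside the first kilobase of a coding receptor gene, had 17, 18 and 23 counts in the Prr14-KO libraries and 10, 3 and 5 counts in the Prr14-WT libraries. All Prr14-KO values stood above all Prr14-WT values, with a log2 change of 1.75 (SE 0.60, edgeR unadjusted p = 0.00371). The Olfr645 region, chr7:104084246-104084912, also within 1 kb of a start, had 46, 28 and 27 counts in Prr14-KO and 59, 58 and 50 counts in Prr14-WT. All its Prr14-KO values were below the Prr14-WT ones, with a log2 change of -0.65 (SE 0.28, edgeR unadjusted p = 0.0195). The narrow Olfr610 region, chr7:103512081-103512255, had 2, 11 and 5 counts in Prr14-KO and 12, 19 and 17 counts in Prr14-WT. Its scaled values overlapped narrowly, at 2.77 CPM in Prr14-KO replicate 5 and 2.73 CPM in Prr14-WT replicate 3, and its log2 change was -1.31 (SE 0.66, edgeR unadjusted p = 0.0486).

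The remaining regions chosen by p lie away from starts. A region 9810 bp upstream of the pseudogene Olfr680-ps1 (chr7:105102479-105102774) had 25, 22 and 12 counts in Prr14-KO and 6, 10 and 10 in Prr14-WT, and one 8869 bp upstream of Olfr578 (chr7:102998096-102998289) had 16, 15 and 20 counts in Prr14-KO and 8, 8 and 7 in Prr14-WT. In both, all Prr14-KO libraries stood above all Prr14-WT libraries, with log2 changes of 1.24 and 1.21. A strong region near Olfr584 (chr7:103078455-103079782) had 91, 61 and 107 counts in Prr14-KO and 65, 71 and 52 in Prr14-WT, with overlap and a log2 change of 0.54. Lower in Prr14-KO in every library was a region 6863 bp upstream of Olfr620 (chr7:103618981-103619812), with 33, 28 and 21 counts in Prr14-KO and 54, 35 and 41 in Prr14-WT. The Olfr668 region, chr7:104930349-104930774, had 12, 28 and 29 counts in Prr14-KO and 46, 27 and 42 in Prr14-WT, which overlap.

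**Figure D4:**
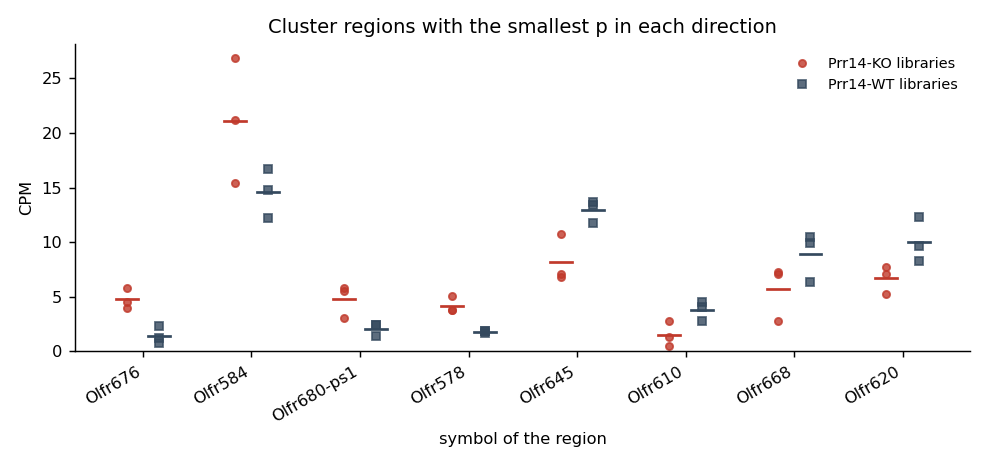
CPM per library (vertical axis) of the 4 cluster regions with the smallest edgeR p in each direction (horizontal axis, by assigned symbol), Prr14-KO as red circles left of Prr14-WT as dark squares, with a line at each mean. Values run from under 1 CPM for Olfr610 to above 25 CPM for Olfr584, and none of the 8 regions passed after adjustment.

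The strongest regions of the cluster did not pass the test either. The region with the highest mean level, 3771 bp downstream of the start of Olfr585 (chr7:103100920-103102062), had 85, 85 and 60 counts in Prr14-KO and 85, 87 and 88 in Prr14-WT. The Olfr609 region had 78, 68 and 68 counts in Prr14-KO and 58, 110 and 99 in Prr14-WT, or 17.5 ± 0.617 CPM in Prr14-KO and 20.8 ± 6.71 CPM in Prr14-WT (SD, n = 3 each). The libraries overlapped in both. The other highest regions are assigned to Olfr559 (chr7:102733661-102734696), Olfr596 (chr7:103294742-103296351, the widest member at 1610 bp) and Olfr584, which has a second strong region at chr7:103066334-103067676. The genotypes overlapped in each of these too. The 12 strongest members annotated to a promoter, exon or untranslated region were all promoter regions whose middles lay 122 to 886 bp past the authors' start site. They belong to Olfr609, Olfr632, Olfr571, Olfr592, Olfr656, Olfr550, Olfr645, Olfr631, Olfr587-ps1, Olfr551, Olfr664 and Olfr577. Their log2 changes ran from -0.65 for Olfr645 to 0.13 for Olfr551, and the libraries overlapped in all but Olfr592 and Olfr645, where Prr14-KO lay below. Over all tested regions the genotypes did not overlap in 9.61%, and over the tested members in 8.72%. The member nearest to a start, 16 bp from that of Olfr545, had 10, 17 and 18 counts in Prr14-KO and 11, 12 and 25 in Prr14-WT. The farthest, 39117 bp upstream of Olfr686, had 13, 9 and 5 counts in Prr14-KO and 8, 21 and 22 in Prr14-WT, and the narrowest, 141 bp at Olfr635, had 6, 16 and 8 in Prr14-KO and 10, 11 and 10 in Prr14-WT. All 3 overlapped.

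Summing the regions of each symbol gave a level per symbol, which also holds assigned regions away from the gene. In 78 of the 113 symbols at least 1 region overlapped the gene in the authors' annotation. Olfr596 and Olfr585, among the highest sums, and Olfr620 and Olfr668, named below for their p, had no region over the gene. Gene sums ran from 1.13 to 52.9 CPM with a median of 10.6 CPM, and per kb covered from 3.04 CPM for Olfr544 to 20.6 CPM for Olfr609, with a median of 10.6. Olfr596, with 8 regions over 4.447 kb, had the highest sum, 53.7 ± 8.14 CPM in Prr14-KO and 52.2 ± 4.61 CPM in Prr14-WT (SD, n = 3 each). Per kb its level was 11.9 CPM, close to the median receptor. Olfr584 followed with 48.7 ± 7.23 CPM in Prr14-KO and 42.8 ± 4.17 CPM in Prr14-WT, and Olfr664, a pseudogene in RefSeq, with 38.6 ± 3.91 CPM in Prr14-KO and 46.6 ± 6.02 CPM in Prr14-WT. Olfr585, Olfr559, Olfr686, Olfr578 and Olfr609 complete the 8 highest, and the libraries overlapped in all 8. Olfr686 has the most regions, 9, followed by Olfr596 and Olfr578 with 8 each and Olfr664 with 7.

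Gene sums gave no call either. Of 106 receptor sums tested, 0 passed edgeR's quasi-likelihood test (lowest Benjamini-Hochberg adjusted p = 1.00), against 0.0393% of the 15265 symbols tested. At an unadjusted p under 0.05 there were 2 (1.89%), against 3.58% of all symbols, and DESeq2 and limma-voom also gave 2 each. The genotypes did not overlap in 7 receptors, 3 with Prr14-KO above and 4 below, against 8.35% of all symbols. The median log2 change was -0.03 over the receptors and 0.0016 over all symbols, and the receptors ranged from -0.67 to 0.88 with a median SE of 0.30. Olfr676 had the smallest p, with 11.99 ± 0.991 CPM in Prr14-KO and 6.43 ± 2.35 CPM in Prr14-WT (SD, n = 3 each). Its Prr14-KO libraries all stood above its Prr14-WT libraries, at a log2 change of 0.88 (SE 0.34, edgeR unadjusted p = 0.0113). Olfr620 was the other, with 15.6 ± 0.704 CPM in Prr14-KO and 22.0 ± 2.18 CPM in Prr14-WT, all Prr14-KO libraries below, and a log2 change of -0.51 (SE 0.23, edgeR unadjusted p = 0.0257). Next by p among the lower sums came Olfr664, Olfr592 and Olfr668, at -0.29, -0.40 and -0.67 on the log2 scale (edgeR unadjusted p from 0.0761 to 0.0947). Among the higher sums, Olfr555, Olfr557 and Olfr559 followed Olfr676, at 0.86, 0.69 and 0.23 (edgeR unadjusted p from 0.178 to 0.203). The gene sums were about as alike within a genotype as between genotypes. Over the 113 sums as log2(CPM + 1), Pearson's r averaged 0.889 in the 6 pairs of libraries within a genotype. In the 9 pairs between genotypes it averaged 0.886. All libraries share the regions behind each sum, so the bases covered per symbol enter r in every pair.

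**Figure D5:**
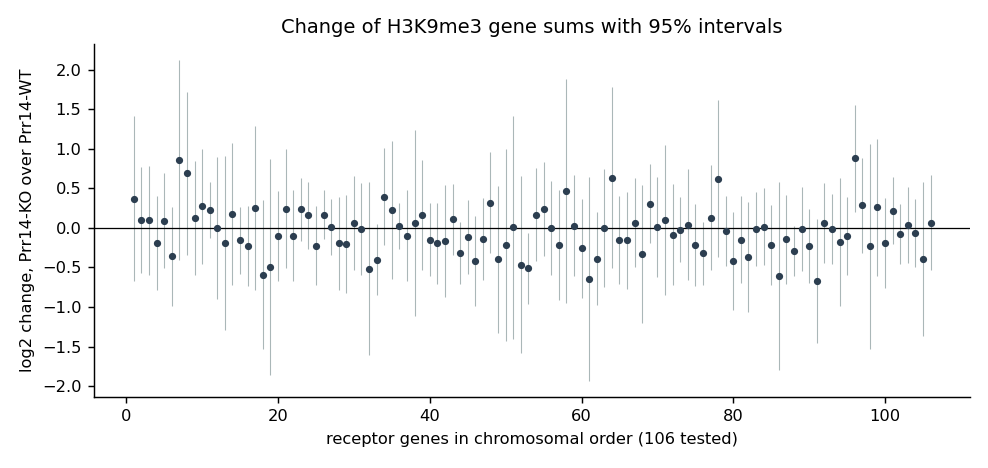
Log2 change of the H3K9me3 sum of each of 106 tested receptor genes, Prr14-KO over Prr14-WT (vertical axis, points with 95% intervals), in chromosomal order (horizontal axis). Points run from -0.67 to 0.88 on both sides of 0, and none passed after adjustment.

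A few class I receptors are known outside the nose, and they were looked up for that reason after values had been seen. Olfr78, a receptor for short-chain fatty acids expressed in kidney and carotid body, had 28, 27 and 17 counts in Prr14-KO and 31, 21 and 23 in Prr14-WT, at a log2 change of 0.00 with a 95% interval of -0.90 to 0.89. Olfr558, expressed in vascular smooth muscle, had 49, 21 and 35 counts in Prr14-KO and 32, 41 and 27 in Prr14-WT, at 0.12 with an interval of -0.60 to 0.84. Both intervals leave room for changes in either direction, and the libraries overlapped. Olfr544, a receptor for azelaic acid, had 1, 20 and 16 counts in Prr14-KO and 3, 0 and 6 in Prr14-WT. Its libraries overlapped through Prr14-KO replicate 4, and it had too few counts to be tested. Both regions of Olfr558 and the single region of Olfr544 are annotated as promoter within 1 kb, while those of Olfr78 lie in its gene body past the start.

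Wider bins narrowed the error of the comparison. None of the 34 tested 100 kb bins of the interval passed edgeR's test after Benjamini-Hochberg adjustment, against 0.058% of the bins of the genome. The bin from 104.7 Mb, at a log2 change of -0.24 (edgeR unadjusted p = 0.0489), was the 1 bin under an unadjusted 0.05, against 3.87% of all bins, and DESeq2 and limma-voom gave 0. Of the 4 bins of 1 Mb that touch the interval, 0 passed and 0 had an unadjusted p under 0.05 by edgeR, DESeq2 or limma-voom, against 0.076% of bins passing genome-wide. The 95% intervals of the log2 change were -0.17 to 0.10 for 103 to 104 Mb and -0.21 to 0.06 for 104 to 105 Mb. Their values were -0.04 and -0.07, and without Prr14-KO replicate 5 the first was 0.0015. The bin from 102 to 103 Mb held 264 ± 8.86 CPM in Prr14-KO and 244 ± 5.13 CPM in Prr14-WT, with all Prr14-KO libraries above, and its interval was -0.04 to 0.25. The bin from 105 to 106 Mb held 292 ± 31.3 CPM in Prr14-KO and 276 ± 30.8 CPM in Prr14-WT, with an interval of -0.08 to 0.22. Without Prr14-KO replicate 4, 2 of these 4 bins had an unadjusted edgeR p under 0.05, against 7.44% of all 1 Mb bins in that fit, where the fit with all libraries gave 1.597%. In the same setting 6 of 35 bins of 100 kb did (17.1%), against 7.41% of all 100 kb bins. After adjustment 0 passed, with log2 changes from -0.13 to 0.15 in the 1 Mb bins.

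No tested gene sum of the other symbols of the interval passed edgeR's test after adjustment, against 0.0393% of all symbols. These genes lie within the receptor cluster or just outside it. Trim68, Xntrpc, Pgap2, Art5, Il18bp and Gm5901 had too few counts to be tested. In Pgap2, with 1 region, all Prr14-KO libraries stood above all Prr14-WT libraries. Regions of 31 such symbols, 90 in all, summed to 478 ± 14.9 CPM in Prr14-KO and 461 ± 31.6 CPM in Prr14-WT (SD, n = 3 each), and held 11.8 CPM per kb, against 10.9 in the members. Trim30d, of the tripartite-motif family, led with 13 regions and 69.9 ± 5.78 CPM in Prr14-KO and 68.9 ± 2.27 CPM in Prr14-WT. The deubiquitinase genes Usp17lb, Usp17le and Usp17ld had 11, 6 and 5 regions. Their log2 changes were 0.08, -0.19 and 0.26, and the libraries overlapped in each. Ubqln5 and Cavin3, the last a caveolae protein gene, were at 0.00 and 0.09.

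The machinery that uses the receptors was listed apart from the cluster: 28 genes of olfactory signal transduction, receptor transport, receptor choice and receptor gene chromatin. Of these, 25 had a region, 21 were tested and 0 passed edgeR's test after adjustment. At an unadjusted p under 0.05 there were 2 of 21, against the 3.58% of all symbols. Reep1, a receptor transport gene, had a log2 change of -0.42 (edgeR unadjusted p = 0.0157), with all Prr14-KO libraries below all Prr14-WT libraries. Omp, which encodes the olfactory marker protein, had one of 0.66 (edgeR unadjusted p = 0.0462). The median log2 change over the 21 was 0.01, with a range of -0.58 to 0.66.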

How the data were processed

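H3K9me3 CUT&Tag libraries were grouped by their genotype labels. For the authors' steps, the submitters' processing notes list BWA, Trimmomatic, bedtools, deepTools, MACS2 and DESeq2 1.6.3, on GRCm38, with no settings. Not given in the sources used here are the pooling of libraries for region calling, the treatment of multi-mapping reads and the counting of positions from 0 or 1. Positions are printed as deposited. Per the file headers, the table holds for each library a raw count per region and a normalised signal, the count divided by 1 factor per library, which was used only to read that factor. The authors also deposited a log2 fold change of knockout over wild type, its p-value and adjusted p-value, and a score per region that was not used.

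In R 4.3.3, edgeR 4.0.16 was applied to the counts of all regions, on sums per symbol and on bins of 100 kb and 1 Mb: filterByExpr (minimum count 10, minimum total 15), TMM scaling, a robust quasi-likelihood fit, and Benjamini-Hochberg adjustment over all features of a level at 0.05. CPM divides a count by the TMM-scaled total of the tested regions. DESeq2 1.42.0, limma-voom 3.58.1, other scalings and filters, and leaving out each library were alternatives. A change of the mark by the same factor everywhere would not be seen, since the labels mention no spike-in. In simulated data of this depth, 74% of 200 gene sums and 9.5% of 200 regions raised 2-fold in Prr14-KO were recovered, and 39% and 1.5% of those raised 1.5-fold. The raised features were drawn from all tested features, so these are not shares for the cluster. The median SE of gene sums was 0.30 in the receptors and 0.22 over all symbols. For regions it was 0.43 in members and 0.46 over all regions.

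Members, lists and tests were chosen with earlier results of these data known. Named in each direction were the 4 regions and 4 gene sums with the smallest p, then the 8 highest sums, the 6 highest regions, the 4 symbols with most regions, up to 12 promoter, exon or untranslated regions, the extremes of distance and width, the highest and lowest 100 kb bin, and the 6 other symbols of the interval with the most counts. Gene spans, strands and start windows came from RefSeq (GRCm38.p6), where 90 of the 113 symbols had a window. The first-kilobase profiles were added after the data were seen.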

Additional observations from a re-analysis of the deposited data

How the results depend on the processing

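No region, gene sum, 100 kb bin or 1 Mb bin of the cluster, and no gene of the olfactory list, was called under any alternative run: RLE size factors, library totals, DESeq2, limma-voom, no filter or a mean count of at least 20, no robust weighting, an adjusted p of 0.10, bins shifted by 50 kb, sums of regions within 10 kb of a start, and each library left out. The 8 regions named for their p kept their direction in all 100 alternatives, with adjusted p from 0.952 to 1.00 where one was given. DESeq2 gave no adjusted p for the named regions of Olfr676, Olfr680-ps1, Olfr578 and Olfr610. The 8 gene sums kept theirs in all 111, with adjusted p from 0.488 to 1. These regions and sums were chosen by p from the same libraries, so a kept direction adds no support for a change. The log2 change of the 103 to 104 Mb bin, -0.04, ran from -0.0897 to 0.0015 with each library left out, the last without Prr14-KO replicate 5, and the other 51 of 52 alternatives of the 1 Mb bins kept their direction. The log2 ratio of the cluster sum lay between -0.0540 and 0.0012 with each library left out, and was -0.03 with RLE size factors and with library totals, -0.0065 over all regions of the interval, and -0.04 over members of at least 500 bp. The share of class I genes with a region in the first kilobase, 50.5%, was 45.0% with tested regions only, 46.3% over genes whose annotated start is a start codon, and 19.3% when more than 50% of the kilobase had to be covered, which is a stricter measure by construction. These 3 alternatives were chosen after the data were seen. At an unadjusted p under 0.05, leaving out each library gave 5 to 10 regions (2.14 to 4.22%), 1 to 5 gene sums (0.917 to 4.59%), 0 to 6 bins of 100 kb (0 to 17.1%) and 0 to 2 bins of 1 Mb. Over all features the shares were 3.61 to 5.05% of regions, 2.63 to 8.54% of symbols, 3.27 to 7.41% of 100 kb bins and 1.44 to 7.44% of 1 Mb bins. The 100 kb share of the cluster was 14.3% without Prr14-WT replicate 8, 8.57% without Prr14-WT replicate 3 and 5.88% without Prr14-KO replicate 5. All 100 kb bins gave 4.475%, 3.31% and 3.34% there. It was 0% without Prr14-KO replicate 7 or Prr14-WT replicate 4, against 3.69% and 3.27%. The highest of these numbers and shares, in the cluster and over all features, came without Prr14-KO replicate 4; 5 gene sums were also reached without Prr14-WT replicate 8. Depth limits single regions most, with a median SE of 0.43 on the log2 scale. No paired analysis was made because the labels give no pairing of libraries.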

Other observations

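The deposited table assigns a region to all 10 of 10 muscle genes looked up (Acta1, Ckm, Myh1, Myh2, Myh4, Ttn, Tnnt3, Des, Mb and Myod1), and in 8 of them a region lies inside the RefSeq gene. Of the 10, 7 gene sums were tested and 0 were called by edgeR after Benjamini-Hochberg adjustment, against 0.0393% of all symbols. Myh1, Myh4 and Tnnt3, with 1 region each, had too few counts to be tested. Mb was the 1 at an unadjusted p under 0.05, against 3.58% of all symbols. Its log2 change was 0.39 (edgeR unadjusted p = 0.0433), with all Prr14-KO libraries above. The median log2 change over the 7 was -0.03, with a range of -0.49 to 0.57. Of the 158 Olfr genes that RefSeq lists in the interval, 45 have no region of their own symbol in the table.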
